A study of Mus musculus with 7 samples.

Results

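The 38 listed Hox genes were examined as 4 units, the HoxA, HoxB, HoxC and HoxD clusters, in chromatin immunoprecipitation sequencing (ChIP-seq) of mouse embryonic branchial arches. They are 38 of 21887 protein-coding genes with a chromosome in the gene table used, with 10 genes in HoxA, 10 in HoxB, 9 in HoxC and 9 in HoxD. Members were taken by symbol, and every deposited peak with its centre inside a cluster or within 100 kb of it was placed along that cluster. A cluster here runs from the first to the last base of its listed genes.

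Hox genes encode homeodomain transcription factors that give cells their position along the head-to-tail axis. Within a cluster their order on the chromosome follows the order in which they are expressed along the body, with low-numbered genes expressed further to the front. In the branchial arches, neural crest cells of the first arch express no Hox genes, the second arch depends on Hoxa2 for its identity, and the third and following arches express the group 3 genes and others. Wnt signalling through β-catenin is among the inputs that set Hox expression in the posterior embryo, and the PHD-finger protein Pygo2 joins β-catenin complexes through Bcl9.

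All samples were branchial arches of wild-type mouse embryos at 10.5 days post coitum, cross-linked with EGS and formaldehyde. The 7 libraries comprise anti-β-catenin ChIPs labelled BA1 and BA2, anti-Pygo2 ChIPs labelled BA1 and BA2, a pre-immune IgG control labelled BA1, and inputs labelled BA1 and BA2. What BA1 and BA2 stand for and which arches were pooled is not given in the labels, so a peak does not tell which cells carried it. The 2 peak lists used come from the β-catenin BA2 and the Pygo2 BA2 libraries, each from 1 library. Their file headers name IgG BA1 as the control. There are no replicates, no value below has a replicate error, and no test between conditions was possible.

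The β-catenin library held 13672937 tags and 1079 peaks, and the Pygo2 library 15009636 tags and 7150 peaks. A peak needed at least 11 tags for β-catenin or 10 for Pygo2, and the headers give 1.149 and 1.246 tags as the number expected per peak. The peaks held 14.6 tags on average for β-catenin and 15.5 for Pygo2, so most lay close to the calling minimum. Where no peak is listed, binding was not detectable at this depth and these thresholds. Among 10 branchial arch marker genes, 8 had a Pygo2 peak within 50 kb, against 46.5% of all protein-coding genes, and 1 a β-catenin peak, against 11.2%, which is near the background. Among 10 hepatocyte genes none had either. The arch markers without a Pygo2 peak in this window were Msx1 and Twist1. Dlx1 and Dlx2 are neighbours, as are Dlx5 and Dlx6, and each pair can share a peak, so the 8 are not independent.

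Peaks of both proteins lay in the Hox regions in small numbers. The 4 cluster windows, 1285 kb of sequence in all, held 2 β-catenin peaks (exact Poisson 95% interval 0.242 to 7.22, counting error only) and 6 Pygo2 peaks (interval 2.20 to 13.1). That is 1.56 β-catenin peaks per Mb (interval 0.188 to 5.62), against 0.427 over the whole list, and 4.67 Pygo2 peaks per Mb (interval 1.71 to 10.2), against 2.83. Both intervals include the value of the whole list. Inside the clusters themselves lay 1 β-catenin peak and 3 Pygo2 peaks, and the others lay in the flanks. The β-catenin peaks fell in HoxA (1) and HoxD (1), and the Pygo2 peaks in HoxA (2), HoxB (1) and HoxC (3). HoxA was thus the only window with peaks of both proteins, HoxD had no Pygo2 peak, and HoxB and HoxC had no β-catenin peak.

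**Figure D1:**
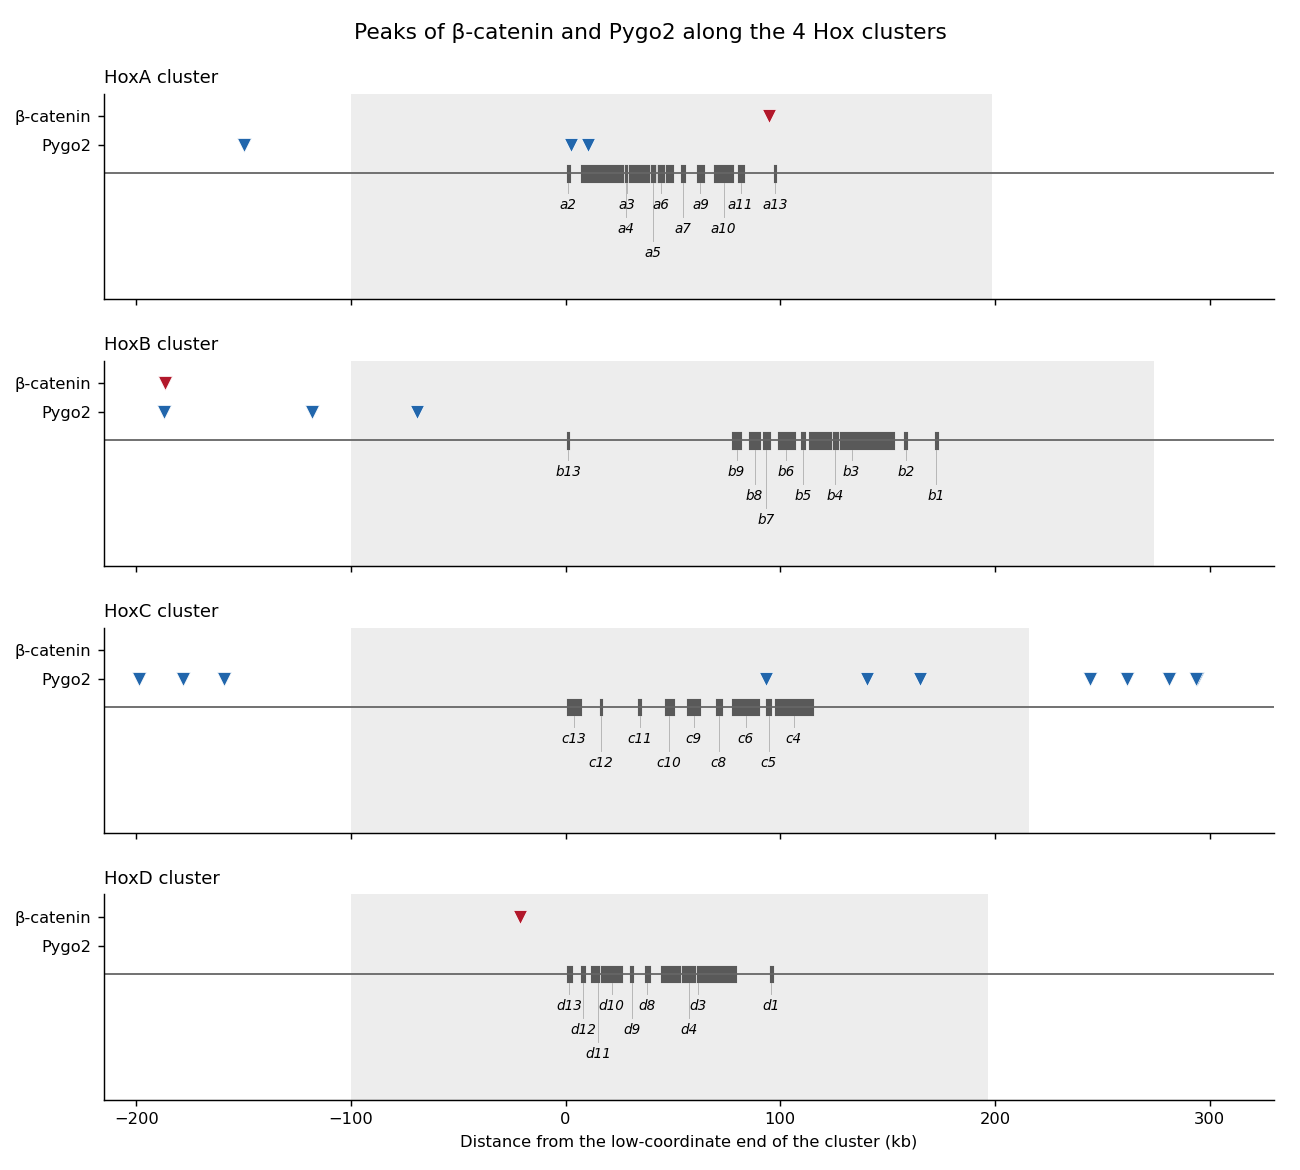
Positions of peaks along the 4 Hox clusters, with kb from the low-coordinate end of each cluster on the horizontal axis, listed Hox genes as dark boxes labelled by letter and number, and peak centres as triangles (β-catenin red, Pygo2 blue) out to 200 kb. Grey shading marks the cluster with its 100 kb flanks, which hold 2 β-catenin and 6 Pygo2 peaks; in HoxA the Pygo2 peaks sit at Hoxa2 and Hoxa3 and the β-catenin peak next to Hoxa13.

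The HoxA cluster (chromosome 6, 52162417 to 52260880, mm10) carried peaks of the 2 proteins at its opposite ends. The first Pygo2 peak spanned 52164999 to 52165165, and its centre lay 251 bp upstream of the RefSeq start site of Hoxa2, which specifies second arch identity. It was the only peak of either list to overlap a promoter window of a listed Hox gene, a window being 250 bases before to 50 after a RefSeq start site: 1 of 24 windows of 22 Hox genes for Pygo2 and 0 of 24 for β-catenin. Over all promoter windows, 8.17% were overlapped by a Pygo2 peak and 0.749% by a β-catenin peak, so 1 or 0 of 24 is near the background.

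The sequence shown for the Hoxa2 peak is the 250 bases before the start site (RefSeq, GRCm38.p6, the assembly of mm10, chr6:52164832-52165081, minus strand). It is shown because here a peak meets one of the Hox promoter windows available. Listed Hox genes without such a window, among them Hoxc5, could not be examined in this way. Capitals mark the 83 bases that lie under the Pygo2 peak; the rest of the peak extends beyond the window, away from the gene.
Hoxa2 upstream: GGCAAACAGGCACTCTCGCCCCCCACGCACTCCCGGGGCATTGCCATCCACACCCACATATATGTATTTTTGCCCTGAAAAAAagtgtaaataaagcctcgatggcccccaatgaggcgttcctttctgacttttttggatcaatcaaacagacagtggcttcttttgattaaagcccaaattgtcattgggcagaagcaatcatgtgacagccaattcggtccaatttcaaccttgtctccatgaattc
The bases under the peak had a GC content of 54.2% and the whole 250 bases 46.4%. Motifs were searched by exact letters on both strands: CTTTGAA or CTTTGAT or CTTTGTT for TCF/LEF factors, the DNA-binding partners of β-catenin, TGATTTA or TGATTAA or TGATTGA for Hox-Pbx pairs, and TGACAG for Meis proteins. The 250 bases held TGATTAA at positions 167 to 173 and TGATTGA on the opposite strand at positions 141 to 147, counted from 1 at the 5′ end, and TGACAG at positions 207 to 212. All 3 matches lay outside the capitals, and none of the TCF/LEF letters occurred in these bases.

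The same search over promoter windows rests on few Hox windows. The Hox share was near that of all windows for TCF/LEF motifs, above it for Hox-Pbx motifs and below it for TGACAG. With 24 Hox windows each share rests on a few windows, and these differences were not tested. A TCF/LEF motif was present in 4 of 24 Hox windows (16.7%; Hoxa11, Hoxd4, Hoxd8 and Hoxd12), against 13.9% of all 32851 windows. A Hox-Pbx motif was present in 4 of 24 (16.7%; Hoxa2, Hoxb1, Hoxd8 and Hoxd11), against 7.83% of all windows, and TGACAG in 2 of 24 (8.33%; Hoxa2 and Hoxa3), against 19.2%. Hoxa2 was the only one of the 22 genes whose window held both a Hox-Pbx and a Meis motif. These are matches of letters and were not tested as binding sites.

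The other Pygo2 peak of HoxA spanned 52172773 to 52172939, 7.77 kb from the first and inside Hoxa3, 3.80 kb from the nearer end of that gene. Hoxa3, needed for the third arch and for the thymus and parathyroid glands, is annotated over 44.0 kb, a span that also covers Hoxa4, Hoxa5 and Hoxa6. The peak centre lay 0.025 kb from the long non-coding RNA gene Gm15050, and the Hoxa2 peak lay 0.592 kb from the non-coding gene Hoxaas2. The gene table does not separate exons from introns. These peaks were consecutive entries of the Pygo2 list, 2030 and 2031 of 7150, and both lay in the first 10.6% of the cluster, counted from Hoxa2.

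The β-catenin peak of HoxA spanned 52257162 to 52257330, at 96.3% of the length of the cluster and 84.4 kb from the nearer Pygo2 peak. Its centre lay between Hoxa11 and Hoxa13, 1.61 kb from Hoxa13 and 11.4 kb from Hoxa11. Hoxa13 acts in the digits, the genital tubercle and the hindgut, and Hoxa11 in the forearm and the uterus. The non-coding gene Hottip, which neighbours Hoxa13, was 5.53 kb away. The peak was entry 413 of 1079 in the β-catenin list and the only β-catenin peak inside any of the 4 clusters.

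Between these ends, distance to the nearest peak changed in opposite directions for the 2 proteins, as follows from their positions. The nearest β-catenin peak was 92.4 kb from Hoxa2, 48.6 kb from Hoxa6, 29.9 kb from Hoxa9 and 1.61 kb from Hoxa13. The nearest Pygo2 peak was 0.251 kb from Hoxa2, 32.0 kb from Hoxa6, 50.2 kb from Hoxa9 and 86.0 kb from Hoxa13. From Hoxa2 to Hoxa6 each HoxA gene was nearer to a Pygo2 peak, and from Hoxa7 to Hoxa13 each was nearer to the β-catenin peak.

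The HoxC cluster (chromosome 15, 102921131 to 103036856) had 1 Pygo2 peak inside it and 2 in the flank beyond Hoxc4. The inner peak spanned 103014253 to 103014419, inside Hoxc5 and 0.328 kb from the low-coordinate end of that gene. Hoxc6 was 2.45 kb and Hoxc4 3.76 kb from its centre, and the microRNA gene Mir615, which lies within the bounds of Hoxc5, was 0.574 kb away. Hoxc4, Hoxc5 and Hoxc6 belong to the genes expressed at neck and shoulder level, where they pattern vertebrae and motor neurons. The flank peaks, 103061550 to 103061716 and 103086157 to 103086323, lay 24.8 kb and 49.4 kb outside the cluster, near the non-coding genes Gm30528 (1.08 kb) and Gm28876 (8.95 kb).

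The mature sequences of Mir615 are shown because, of the 6 microRNA genes inside the clusters, it alone lay within 10 kb of a peak. They come from RefSeq (GRCm38.p6, plus strand, chr15:103014926-103014947 for the 5p arm and chr15:103014969-103014990 for the 3p arm), with the seed, bases 2 to 8, in capitals.
mmu-miR-615-5p: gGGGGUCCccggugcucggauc
mmu-miR-615-3p: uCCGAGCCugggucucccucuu
The share of all microRNA genes with a peak within 10 kb was not computed, so this count has no background. The other 5 microRNA genes of the clusters fall into a pair of families by the seed of their 5p arm. Mir196a-1, Mir196a-2 and Mir196b share the seed AGGUAGU and lay 140.3, 40.9 and 57.2 kb from the nearest Pygo2 peak and 257, 267 and 27.1 kb from the nearest β-catenin peak. Mir10a and Mir10b share the seed ACCCUGU and lay 192 and 597 kb from the nearest Pygo2 peak and 309 and 79.0 kb from the nearest β-catenin peak. Of 23 long non-coding RNA genes overlapping the clusters, 5 had a Pygo2 peak and 1 (Hoxa11os, 7.48 kb) a β-catenin peak within 10 kb. These are 21.7% for Pygo2, against 14.2% of all 12731 long non-coding RNA genes, and 4.35% for β-catenin, against 2.61%. Most of the 5 lie beside the neighbouring Pygo2 peaks of HoxA and share them, so they are not independent. The 23 leave out non-coding genes just beyond the listed Hox genes. Among those left out are Hottip, 5.53 kb from the β-catenin peak of HoxA, and Hotairm1, 3.06 kb from the Hoxa2 Pygo2 peak.

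Towards its other end HoxC had no peak of either protein. The Pygo2 peak inside Hoxc5 and the next one on the low-coordinate side, 159 kb outside the cluster, were 252 kb apart, and 7 of the 9 HoxC genes, from Hoxc13 to Hoxc6, lay between them. Stretches at least this long made up 26.9% of those between neighbouring Pygo2 peaks and held 86.0% of the sequence between peaks, so its length was not unusual. Hoxc13, a gene of hair follicles and nails, was 85.5 kb from the nearest Pygo2 peak. The nearest β-catenin peak was 204 kb from Hoxc4 and 312 kb from Hoxc13. Beyond the flanks, from 100 to 200 kb outside the cluster, 8 further Pygo2 peaks were nearest to Calcoco1, Smug1 and Cbx5 and none to a Hox gene.

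The HoxB cluster (chromosome 11, 96194316 to 96368254) contained no peak of either protein. A count of 0 allows up to 3.69 peaks by the exact Poisson interval. Its only Pygo2 peak within 100 kb (96124815 to 96124981) lay 69.4 kb outside the cluster on the side of Hoxb13, within 1 kb of ends of Ttll6 and Calcoco2, and was late in the list (entry 6993 of 7150). All 10 HoxB genes lay in a stretch of 617 kb between adjacent Pygo2 peaks. Of 7129 such stretches between neighbouring Pygo2 peaks 13.6% were as long or longer, and they held 71.0% of the sequence between peaks. Hoxb1, which specifies hindbrain segment identity and the facial nerve, was 241 kb from the nearest Pygo2 peak. Its nearest β-catenin peak was 358 kb away. For Hoxb2 these distances were 227 and 344 kb.

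The HoxD cluster (chromosome 2, 74668225 to 74765142) contained no peak either, and its one neighbour within 100 kb was a β-catenin peak. That peak spanned 74646952 to 74647120, 21.2 kb outside the cluster on the side of Hoxd13. Its nearest gene was Evx2, an even-skipped type homeobox gene that adjoins HoxD, at 5.95 kb. It was entry 929 of 1079 and was absent from the earlier-listed 539 peaks. Hoxd10, Hoxd11, Hoxd12 and Hoxd13, which act in limb and genital development, were 37.2, 32.5, 28.0 and 21.2 kb from it, and Hoxd1 at the other end was 116 kb away.

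No Pygo2 peak came closer than 539 kb to HoxD. The 9 HoxD genes lay between Pygo2 peaks 1341 kb apart, a distance reached by 6.23% of the stretches between neighbouring Pygo2 peaks. Such stretches held 52.1% of the sequence between neighbouring Pygo2 peaks. The distances of the HoxD genes to the nearest Pygo2 peak ran between 539 kb for Hoxd13 and 634 kb for Hoxd1.

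**Figure D2:**
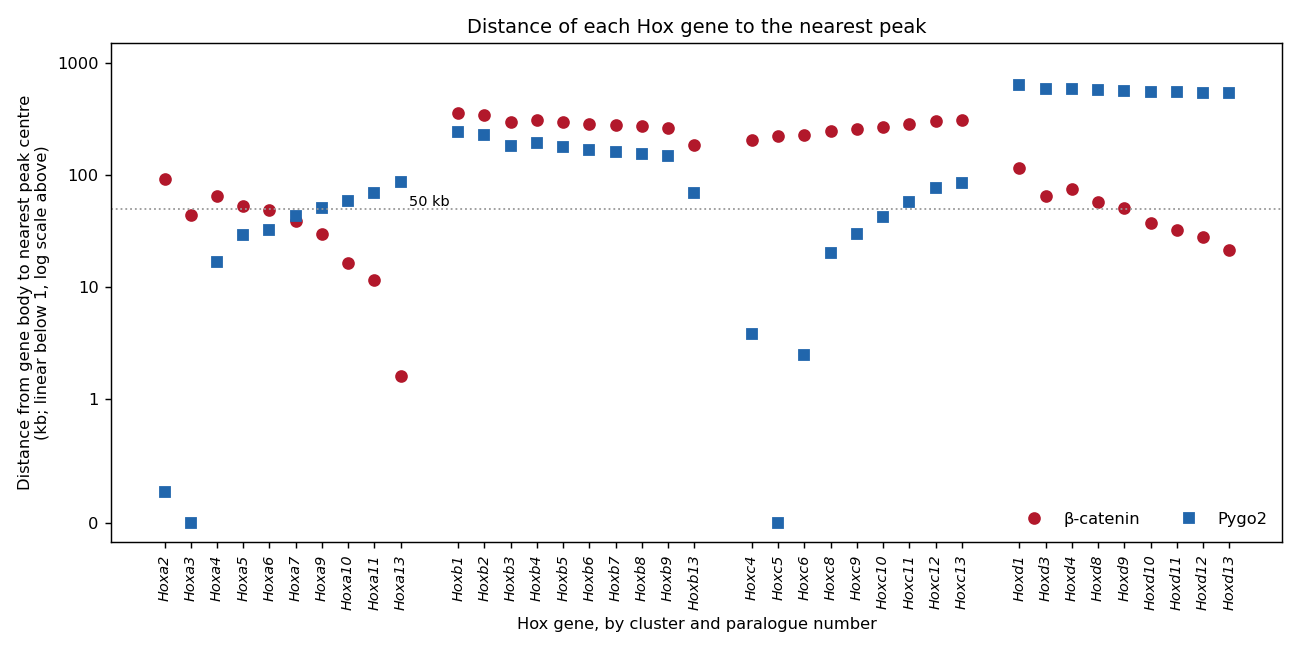
Distance in kb from the body of each of the 38 Hox genes to the nearest peak centre (0 inside the gene; linear below 1 kb and log scale above), ordered by cluster and paralogue number, with β-catenin as red circles and Pygo2 as blue squares. The HoxA genes show opposite slopes for the 2 proteins, the HoxB genes lie above 50 kb for both, and the HoxD genes lie between 539 and 634 kb for Pygo2.

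Counted by gene, the share of Hox genes with a peak within 50 kb was above the background for β-catenin, and for Pygo2 it was below or equal to it, depending on the peaks counted. These counts rest on 2 β-catenin and 5 Pygo2 peaks, and the differences were not tested. Within 50 kb of the gene body, 11 of 38 Hox genes (28.9%) had a β-catenin peak, against 11.2% of all protein-coding genes. For Pygo2 12 of 38 (31.6%) had a peak, against 46.5% of all genes. With the earlier-listed 3575 Pygo2 peaks the share was again 31.6%, against 31.7% of all genes, and without peaks within 1 kb of a gene end it was 23.7%, against 24.7%, so the lower Pygo2 share was seen with the full list but not with these subsets. The 11 genes are 7 of HoxA around a single peak and 4 of HoxD around another. The 12 are 6 of HoxA and 6 of HoxC. Genes of a cluster share their peaks and are not independent, and Hox genes were shorter (median 3.72 kb) than all protein-coding genes (median 17.2 kb).

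At closer range both proteins were seen at few Hox genes. Within 10 kb, 1 of 38 Hox genes (2.63%) had a β-catenin peak (Hoxa13), against 5.46% of all genes, and 5 of 38 (13.2%) had a Pygo2 peak (Hoxa2, Hoxa3, Hoxc4, Hoxc5 and Hoxc6), against 30.0%. Within 1 kb the counts were 0 for β-catenin, against 3.61% of all genes, and 3 for Pygo2 (Hoxa2, Hoxa3 and Hoxc5), against 22.9%. At 100 kb they were 18 (47.4%) for β-catenin, against 17.2%, and 20 (52.6%) for Pygo2, against 57.6%. At 200 kb they were 20 (52.6%) for β-catenin, against 26.3%, and 27 (71.1%) for Pygo2, against 69.3%. With the full list, the Pygo2 share of the Hox genes lay below the background in windows up to 100 kb and was close to it at 200 kb; at 50 kb it equalled the background within about 1 percentage point with the subsets above.

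**Figure D3:**
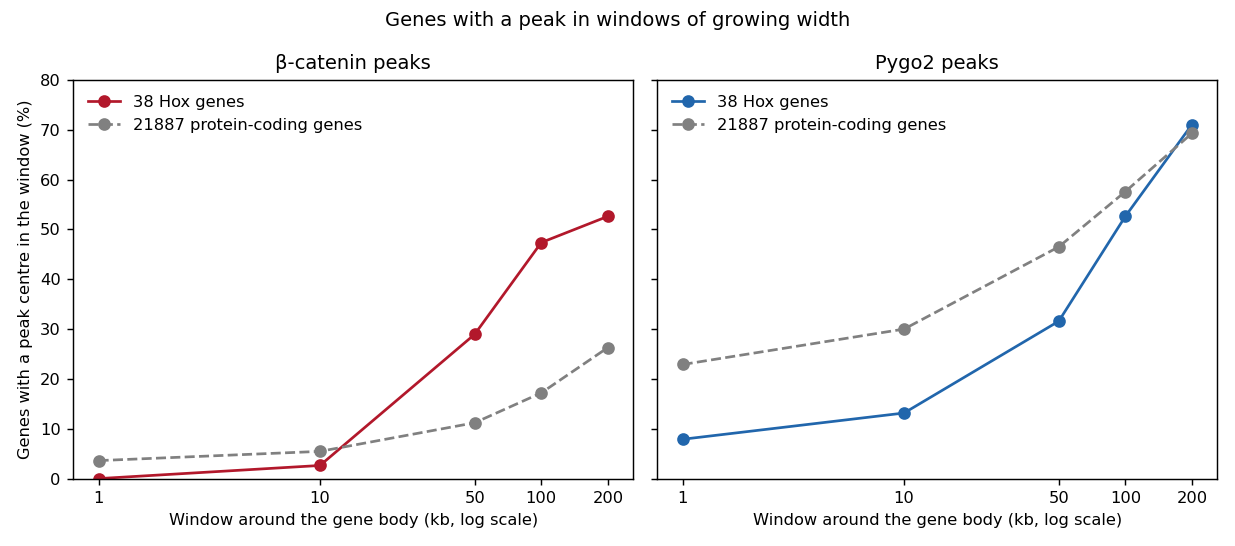
Share of genes (%) with a peak centre within 1, 10, 50, 100 and 200 kb of the gene body (log scale), for β-catenin on the left and Pygo2 on the right, with the 38 Hox genes as solid coloured lines and all 21887 protein-coding genes as dashed grey lines. The β-catenin line of the Hox genes crosses above the background between 10 and 50 kb, and the Pygo2 line lies below it up to 100 kb with the full list.

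The Hox genes lay at a shorter median distance to β-catenin peaks than all genes, and the direction for Pygo2 depended on the peaks counted. The median distance to the nearest β-catenin peak was 151 kb over the 38 Hox genes and 645 kb over the 21631 protein-coding genes on chromosomes with a β-catenin peak. Genes of a cluster share their nearest peaks, so these distances are not independent and the difference was not tested. The 151 kb falls in a gap: HoxA and HoxD genes lay at most 116 kb from a β-catenin peak, HoxB and HoxC genes at least 186 kb. The median distance to the nearest Pygo2 peak was 85.8 kb over the Hox genes and 62.4 kb over all 21887, but 102 kb and 178 kb with the earlier-listed Pygo2 peaks and 160 kb and 208 kb without peaks at gene ends. By cluster, the β-catenin medians were 41.4 kb for HoxA, 290.2 kb for HoxB, 256 kb for HoxC and 50.7 kb for HoxD. The Pygo2 medians were 37.4 kb for HoxA, 173 kb for HoxB, 29.9 kb for HoxC and 568 kb for HoxD. Against the medians of all genes, all 4 clusters were nearer to β-catenin peaks, HoxA and HoxC were nearer to Pygo2 peaks, and HoxB and HoxD were farther from Pygo2 peaks.

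With each cluster as 1 unit, β-catenin peaks were found in 2 of 4 windows and Pygo2 peaks in 3 of 4. The genome was also divided into 7871 stretches of 321 kb, the mean width of the Hox windows, and β-catenin peaks fell in 11.0% of these and Pygo2 peaks in 37.9%. Unlike most of these stretches, the Hox windows were chosen for the genes they hold.

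The genes were also split by paralogue number, and the shares below stand against 11.2% of all genes for β-catenin and 46.5% for Pygo2. Of the 16 genes of groups 9 to 13, 8 (50%) lay within 50 kb of a β-catenin peak and 2 (12.5%; Hoxc9 and Hoxc10) within 50 kb of a Pygo2 peak. Of the 15 genes of groups 4 to 8, 2 (13.3%; Hoxa6 and Hoxa7) lay that near to β-catenin and 8 (53.3%) to Pygo2, both near the background. Of the 7 genes of groups 1 to 3, 1 (14.3%; Hoxa3) lay that near to β-catenin and 2 (28.6%; Hoxa2 and Hoxa3) to Pygo2. The 8 posterior genes near β-catenin peaks, Hoxa9, Hoxa10, Hoxa11, Hoxa13 and Hoxd10 to Hoxd13, are accounted for by 1 peak in each of HoxA and HoxD.

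Over the 38 genes, 3 had peaks of both proteins within 50 kb (Hoxa3, Hoxa6 and Hoxa7), 8 a β-catenin peak alone, 9 a Pygo2 peak alone and 18 neither. Both were found at 7.89% of the Hox genes and 9.23% of all protein-coding genes, and neither at 47.4% and 51.5%. None of the peaks overlapped: 0 of 2 β-catenin peaks in the windows were shared (exact binomial upper limit 84.2%), against 25.3% of the whole list, and 0 of 6 Pygo2 peaks (upper limit 45.9%), against 3.82%. Both limits lie above the shares of the whole lists, so sharing at the usual rate could not be told apart from none with so few peaks. Between 100 and 200 kb from the clusters there was 1 further β-catenin peak. It lay 186 kb from HoxB and 1.99 kb from Igf2bp1, where a Pygo2 peak lay 1.37 kb from the gene without overlap.

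Among genes that act with, above or below the Hox genes, the share with a Pygo2 peak within 50 kb ran between 50% and 100% by list. It was 46.5% of all protein-coding genes and 31.6% of the Hox genes, so the lowest list share was near the background. These differences were not tested. Hox proteins bind DNA together with TALE homeodomain cofactors of the Meis, Pbx and Pknox families, and all 9 of these genes had a Pygo2 peak within 50 kb, against 46.5% of all genes. Inside Meis1 and Pbx3 a β-catenin peak was present as well. A Pygo2 peak lay within 1 kb of an end of Meis1 (0.870 kb), Pbx2 (0.099 kb), Pbx3 (0.953 kb) and Pknox1 (0.129 kb). These genes were long, with a median of 139 kb, which widens their windows.

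Trithorax and Polycomb proteins keep Hox genes active or silent, and 19 of 21 of their genes had a Pygo2 peak and 9 of 21 a β-catenin peak within 50 kb, against 46.5% and 11.2% of all genes. The nearest Pygo2 peak was 0.007 kb from Ezh2, which encodes the Polycomb H3K27 methyltransferase, 0.037 kb from Men1, which encodes menin, a partner of Kmt2a, and 0.245 kb from Wdr5, a core subunit of H3K4 methyltransferases. β-catenin peaks lay 0.289 kb from Ezh2 and 0.074 kb from Men1. Some of the 9 genes with β-catenin peaks are neighbours on one chromosome and can share a peak. Ring1 and Kdm6a had no Pygo2 peak within 50 kb.

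Retinoic acid is the main signal that sets the front limits of Hox expression, and 9 of 16 genes for its supply and receptors had a Pygo2 peak and 3 a β-catenin peak within 50 kb. The 3 were the receptor genes Rara and Rarg and Crabp2, a retinoic acid binding protein gene, and each also had a Pygo2 peak. Rxra (1.21 kb), Rdh10, an enzyme of retinoic acid synthesis (1.499 kb), and the degrading enzyme gene Cyp26a1 (1.80 kb) had a Pygo2 peak alone. Aldh1a2, the main synthesis enzyme of the embryo, was 352 kb from the nearest Pygo2 peak. The Pygo2 share of 56.3% was near the background of 46.5%, and the β-catenin share was 18.8%, against 11.2% of all genes.

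Of 8 upstream regulators of Hox genes, 4 (50%), among them Gbx2 and Cdx4, had a Pygo2 peak within 50 kb, near the 46.5% of all genes. None had a β-catenin peak, against 11.2% of all genes, and 0 of 8 is near that background. Of 10 genes listed as Hox-dependent in the second arch, none had a β-catenin peak, again near the background. That list does not separate genes raised by Hox function from genes lowered by it, so its members are not second arch markers. Of these 10, 7 (70%) had a Pygo2 peak. Among them were Six2 (0.192 kb) and Alx4 (0.335 kb), genes of arch mesenchyme, and Meis2 and Gbx2, each with a peak inside the gene. Among 13 homeobox genes related to the Hox genes but outside the listed clusters, 1 (Cdx4, 26.2 kb) had a Pygo2 peak and 1 (Evx2) a β-catenin peak. Their Pygo2 share of 7.69% was below both the Hox genes at 31.6% and all genes at 46.5%. The lists overlap, since Cdx1, Cdx2, Cdx4, Meis2 and Gbx2 each stand on more than 1 of them. Alx4, Barx1 and Msx1 of the second arch list are also among the branchial arch markers.

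**Figure D4:**
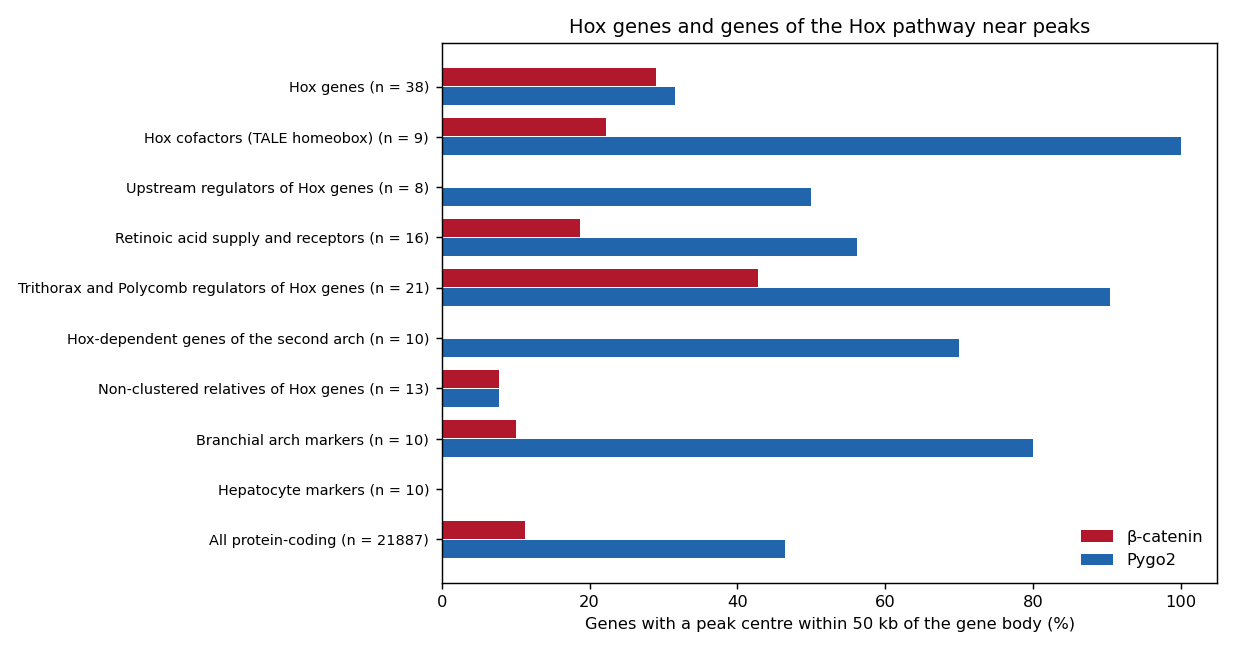
Share of genes (%) with a peak centre within 50 kb of the gene body, for the Hox genes at the top, lists of genes of the Hox pathway and marker lists in the middle, and all protein-coding genes at the bottom, with β-catenin in red and Pygo2 in blue. Pygo2 reaches 100% of the 9 TALE cofactors and 90.5% of the 21 Trithorax and Polycomb genes, against 31.6% of the Hox genes and 46.5% of all protein-coding genes.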

How the data were processed

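Per the file headers, the authors called peaks with HOMER findPeaks in factor style on 1 library per list, with IgG BA1 as control. Thresholds were a false discovery rate of 0.001 and, both over IgG and over the local 10 kb, a ratio of 2 and a Poisson p-value of 1.00e-04. The comparison with IgG removed 70.3% of putative β-catenin peaks and 57.3% of putative Pygo2 peaks, and the local comparison 2.97% and 10.0%; whether any of them lay in a Hox cluster was not tested. Bowtie, Bowtie2, HOMER and mm10 are named, without versions, in the submitters' processing notes. The deposited score is 1 in every peak. How the lists are sorted is not stated.

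Coordinates were made 1-based. Genes, promoters and microRNAs came from RefSeq tables of GRCm38.p6, which matched all 38 members by symbol, and 22 of them had a promoter sequence; mitochondrial genes were left out. Distances run from the peak centre to the gene body, 0 inside. Peaks that overlapped by 1 bp or more counted as shared. The named genes are the 38 members, genes nearest to peaks of the windows, and list members with a peak within 50 kb, to which a few others of the lists were added after their values were seen. Members and lists were chosen with earlier results of these data known. Other genes of the clusters are not reported here. With 1 library per protein no test was run; intervals cover counting error only. Distance and overlap steps were tested on simulated data. Python 3.11.15, NumPy 2.4.6, pandas 2.3.3, SciPy 1.17.1 and Matplotlib 3.10.9 were used.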

Additional observations from a re-analysis of the deposited data

How the results depend on the processing

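No paired analysis was possible because each list comes from 1 library. Of 27 alternatives, 15 were classed as moved, and the cause was not tested beyond the change of window, peak set or unit. The other 12 were classed as the same, which for counts allowed a change as large as 2 to 3 and for medians allowed none. Among these 12, flanks of 200 kb gave 3 β-catenin window peaks instead of 2. Flanks of 50 kb gave 5 Pygo2 window peaks instead of 6. Without peaks at gene ends, 9 Hox genes instead of 12 had a Pygo2 peak within 50 kb. With flanks of 200 kb the Pygo2 count in the windows was 17. With the earlier-listed 539 β-catenin and 3575 Pygo2 peaks, the window counts were 1 and 3. The β-catenin gene count was then 7 (18.4%, against 6.43% of all genes). The median distance to β-catenin was 357 kb, against 1328 kb over all genes on chromosomes with such a peak. For Pygo2 it was 102 kb, against 178 kb. Without peaks at gene ends the Pygo2 window count was 3. At windows of 100 kb the gene counts were 18 for β-catenin and 20 for Pygo2, and at 10 kb 1 and 5. With peaks assigned only to the closest protein-coding gene they were 1 and 4, and the matching share of all genes was not computed. Taking each cluster as 1 unit, with the distance from the cluster to its nearest peak (0 inside), the median of the 4 was 104 kb for β-catenin and 34.7 kb for Pygo2; a cluster is longer than a gene, so these are not set against the medians of all genes. The count of 0 shared positions was also 0 under its 3 alternatives. Peaks near the calling minimum of 11 or 10 tags limit all counts.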
